A study of Mus musculus with 8 samples.

Results

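Acyl-CoA thioesterases cut fatty acyl-CoA into a free fatty acid and coenzyme A. The mRNA levels of 10 of these enzymes were taken from a table of 22552 genes in mouse brown adipose tissue, namely Acot1, Acot2, Acot3, Acot4, Acot7, Acot8, Acot9, Acot11, Acot12 and Acot13. The members were chosen by family name, and the choice was also guided by the lower level of Acot11 in mutant tissue, so every difference between genotypes is given below as a description with no test. The mutant genotype was mmu-mir-193b -/-, called Null, in which miR-193b and its cluster partner miR-365-1 are missing. The other was mmu-mir-193b +/+, called WT. Both came from mice 2 months old of a mixed 129SV::FVB/N::C57BL/6 strain. The breeding began from floxed heterozygotes with an MMTV-Cre transgene, a Cre under a mammary tumour virus promoter, and the transgene was bred out afterwards. The labels tie the deletion to no cell type. The labels give no sex and no housing temperature for the mice.

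The labels list 3 Null and 3 WT samples for mRNA and 1 Null and 1 WT sample for microRNA. The authors deposited 1 mRNA column per genotype, here the Null pool and the WT pool, so that no spread between mice can be given and no difference has a replicate check. Levels are in FPKM, fragments scaled to transcript length and to mapped fragments, which allows levels of different genes to be set side by side. How deeply the mRNA libraries were sequenced is unknown. In the microRNA libraries miR-193b-3p stood at 11.5 RPM for Null and 3705 RPM for WT. Another copy outside the cluster also makes miR-365-3p, which stood at 798 RPM for Null and 1442 RPM for WT. All 11 markers of brown fat were detected in both pools and summed to 47804 FPKM in Null and 37596 FPKM in WT, with 5 of them higher and 6 lower in Null. Fabp4, the fatty acid carrier of adipocytes, made up most of the sum at 34679 FPKM in Null and 27295 FPKM in WT. Cox7a1, a cytochrome oxidase subunit of heart, muscle and brown fat, was at 5343 FPKM in Null and 2634 FPKM in WT, and Adipoq, which encodes adiponectin, was at 1899 FPKM in Null and 1163 FPKM in WT. Ucp1, the uncoupling protein, was at 2487 FPKM in Null and 3016 FPKM in WT, and Dio2, the deiodinase that activates thyroid hormone, was at 9.05 FPKM in Null and 18.6 FPKM in WT. Markers of other cells also differed between pools. The 22 skeletal muscle fibre genes summed to 3469 FPKM in Null and 4910 FPKM in WT, the 15 macrophage genes to 269.8 FPKM in Null and 189.9 FPKM in WT, and the 5 red cell genes to 469 FPKM in Null and 158 FPKM in WT.

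Thioesterases oppose the acyl-CoA synthetases, which charge fatty acids with coenzyme A before oxidation or storage. In this way they set how much of the cell's fatty acid is present as acyl-CoA and how much as free acid in cytosol, mitochondria and peroxisomes. Type I enzymes share an alpha/beta hydrolase fold, and the type II enzymes carry hotdog domains instead. Brown fat burns fatty acids for heat, and its best-known thioesterase is Acot11, also called BFIT or Them1, which was found as an mRNA induced in brown fat by cold.

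The main microRNA products of the deleted cluster are shown first, since they define the genotype, beside miR-193a-3p from another locus, which was at 4067 RPM in Null and 3857 RPM in WT. Sequences are those of RefSeq for GRCm38.p6, 5′ to 3′, and capitals mark the seed, bases 2 to 8.
miR-193b-3p: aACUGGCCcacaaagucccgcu
miR-193a-3p: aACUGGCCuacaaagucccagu
miR-365-3p: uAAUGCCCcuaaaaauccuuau
The seeds of miR-193b-3p and miR-193a-3p are identical, so 1 abundant carrier of that seed was present in both libraries.

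The promoters of Acot11 are shown because, of the members over 1 FPKM on average, it had the log2 ratio furthest from 0, and those of Acot1 and Acot2 because these neighbours in 1 gene cluster stood far apart in level. RefSeq gives 11 promoters for 9 of the 10 members, each from 250 bases before to 50 bases after a transcript start, and Acot11 has 2 starts that the gene-level table does not separate. The following motifs were searched on both strands: the PPAR direct repeat AGGTCANAGGTCA and the single site AGGTCA, which lies within the repeat, the cAMP response element TGACGTCA, the GC box GGGCGG, the CCAAT box CCAAT and the E-box CACGTG. Capitals mark the matches, and no 2 matches in the 4 sequences overlap.
Acot11, upstream start, chr4:106804958-106805257, minus strand, GRCm38.p6: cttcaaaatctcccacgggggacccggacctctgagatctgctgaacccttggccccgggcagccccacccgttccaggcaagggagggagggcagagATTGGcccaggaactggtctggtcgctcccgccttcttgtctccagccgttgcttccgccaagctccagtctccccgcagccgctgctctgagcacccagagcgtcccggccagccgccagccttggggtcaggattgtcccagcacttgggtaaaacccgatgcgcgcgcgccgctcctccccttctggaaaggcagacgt
Acot11, downstream start, chr4:106799782-106800081, minus strand, GRCm38.p6: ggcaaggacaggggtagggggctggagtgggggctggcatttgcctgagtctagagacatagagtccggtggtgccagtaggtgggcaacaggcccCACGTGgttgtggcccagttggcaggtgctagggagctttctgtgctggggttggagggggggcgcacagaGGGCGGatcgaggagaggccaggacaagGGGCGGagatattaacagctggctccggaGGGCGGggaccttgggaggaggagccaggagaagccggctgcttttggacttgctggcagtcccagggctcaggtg
Acot2, chr12:83987611-83987910, plus strand, GRCm38.p6: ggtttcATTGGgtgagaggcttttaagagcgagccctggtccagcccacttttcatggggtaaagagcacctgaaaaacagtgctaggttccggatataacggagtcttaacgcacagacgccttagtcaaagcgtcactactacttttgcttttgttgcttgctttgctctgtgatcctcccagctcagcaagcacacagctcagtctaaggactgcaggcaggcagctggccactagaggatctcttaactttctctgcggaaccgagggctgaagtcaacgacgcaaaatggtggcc
Acot1, chr12:84009252-84009551, plus strand, GRCm38.p6: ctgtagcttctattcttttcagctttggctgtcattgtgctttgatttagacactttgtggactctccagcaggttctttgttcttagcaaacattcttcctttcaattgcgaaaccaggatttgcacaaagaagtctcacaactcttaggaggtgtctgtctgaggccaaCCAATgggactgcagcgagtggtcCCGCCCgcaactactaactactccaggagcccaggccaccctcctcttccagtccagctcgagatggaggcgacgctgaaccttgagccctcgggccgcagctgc
The upstream Acot11 start held 1 CCAAT box, and the downstream start held 3 GC boxes and 1 E-box. Acot2 had 1 CCAAT box, and Acot1 had 1 CCAAT box and 1 GC box. Of all 32851 promoters in the table, 37.4% held a CCAAT box, 35.7% a GC box and 7.15% an E-box. The PPAR direct repeat was in none of the 11 member promoters and in 0.0396% of all promoters. The single site was in promoters of Acot3, Acot4 and Acot12, and in 16.3% of all promoters, and the cAMP response element was in none of the 11 and in 1.79% of all.

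Acot13 and Acot11 were the abundant thioesterase mRNAs of brown fat in both pools, and they differed in opposite directions. Acot13 was at 576 FPKM in Null, against 299 FPKM in WT, and ranked 156 in Null and 250 in WT among all genes by level. Acot11 was at 78.9 FPKM in Null, against 203 FPKM in WT, and ranked 1061 in Null and 375 in WT. Next came Acot9 at 27.3 FPKM in Null and 26.1 FPKM in WT, and Acot2 at 25.2 FPKM in Null and 19.7 FPKM in WT. Acot8 and Acot7 followed at 12.8 to 15.5 FPKM over both pools, and Acot4 was at 2.75 FPKM in Null and 3.38 FPKM in WT. Acot1, Acot12 and Acot3 were below 1 FPKM on average. The order Acot13, Acot11, Acot9 and Acot2 was the same in both pools. Acot7 stood above Acot8 in Null and below it in WT, with close values. With no spread it cannot be said which neighbours in this order differ.

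**Figure D1:**
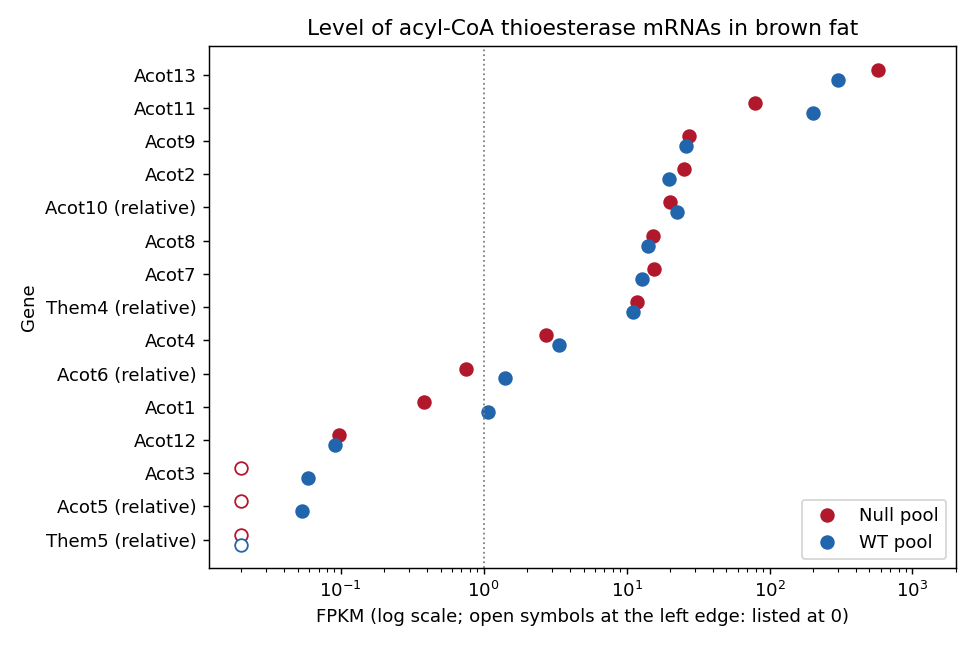
Level of each thioesterase mRNA in the Null pool and the WT pool on a log axis of FPKM, members and other family genes ordered by mean level, with a dotted line at 1 FPKM and open symbols for genes listed at 0. Acot13 and Acot11 lie above the rest of the family in both pools, and their symbols are the farthest apart among genes over 1 FPKM on average.

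Differences are given as log2((Null + 1)/(WT + 1)) of FPKM, a scale that understates the difference of low genes, for 11597 genes whose mean over both pools was 1 FPKM or more. Of the 10 members 7 passed this filter. Of these, 1 was lower in Null by 1.5-fold or more, 1 was higher and 5 lay within 1.5-fold. Over all 11597 genes, 6.75% were lower and 7.87% higher by that fold, and because the choice of members used this contrast, nothing is read from the members' counts. At 2-fold or more 1 member was lower and 0 were higher, with 1.65% of all genes lower and 2.17% higher. The median of all genes was 0.0056.

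Acot11 had the log2 ratio furthest from 0 among the members that passed the filter. On the FPKM scale Acot13 differed more, by 276 FPKM for Null minus WT against -124 FPKM for Acot11. The Acot11 protein joins hotdog thioesterase domains to a START domain, a lipid-binding module, and hydrolyses long-chain acyl-CoA. The log2 ratio of Acot11 was -1.35, so that the WT level was 2.57 times the Null level (2.78 times for Acot1, which was under the filter). Counting Acot11 itself, 90 genes (0.776% of those measured) had a ratio at least as low. The lower level of Acot11 guided the choice of members, so nothing is read from this rank. The gene that Acot11 overlaps in the annotation, Fam151a, was at 0.128 FPKM in Null and 0.0728 FPKM in WT. Its neighbour Ssbp3 was at 17.5 FPKM in Null and 13.5 FPKM in WT, which is the opposite direction. Among the 22 skeletal muscle fibre genes, 15 also had a Null level lower by at least 1.5-fold and 0 a higher one, with a median log2 ratio of -0.97. Over all genes, 6.75% were lower and 7.87% higher by that fold. None of the 22 muscle genes was listed at 0. The part of muscle RNA in the Acot11 difference was not tested. In bulk tissue fewer cells of a type and less RNA per cell cannot be told apart.

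The 4 genes whose pair of levels lay closest to that of Acot11, by Euclidean distance in log2(FPKM + 1) over only 2 pools, were Pmvk, Atp2a1, Lpin1 and Tcap. Pmvk, phosphomevalonate kinase of sterol synthesis, was at 87.3 FPKM in Null and 193 FPKM in WT. Lpin1, a phosphatidate phosphatase, was at 81.4 FPKM in Null and 166 FPKM in WT. Atp2a1, the calcium pump of fast muscle, was at 90.6 FPKM in Null and 210 FPKM in WT, and Tcap, a sarcomere protein, at 96.1 FPKM in Null and 173 FPKM in WT. Distances ran from 0.16 for Pmvk to 0.37 for Tcap on the log2 scale.

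Acot13 differed the other way. It encodes Them2, a small hotdog thioesterase associated with mitochondria that hydrolyses long-chain acyl-CoA and binds Pctp, the phosphatidylcholine transfer protein. Its log2 ratio was 0.94, a Null level 1.92 times the WT level, and 291 genes (2.51%), Acot13 included, had a ratio at least as high. Its partner Pctp was at 8.31 FPKM in Null and 8.89 FPKM in WT. Its neighbour Tdp2 was at 19.1 FPKM in Null and 14.2 FPKM in WT, and the neighbour on the other side, BC005537, was at 43.7 FPKM in Null and 57.0 FPKM in WT. Ratios in these pools moved with gene length, so this value is given beside them. Over 5 groups of genes of equal size by gene span, shortest first, the median log2 ratio was 0.20, 0.04, 0.0021, -0.08 and -0.14, with Acot13 in group 2 and Acot11 in group 4. Relative to the genes of its own span group, Acot13 was at 0.90. A set of 70 cytosolic ribosomal protein genes, whose mRNAs are short, was taken by gene symbol after the values were seen. It had a median of 0.90, with 65 of 70 above 0. Span is not mRNA length, and the part of mRNA length in the Acot13 ratio was not tested.

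**Figure D2:**
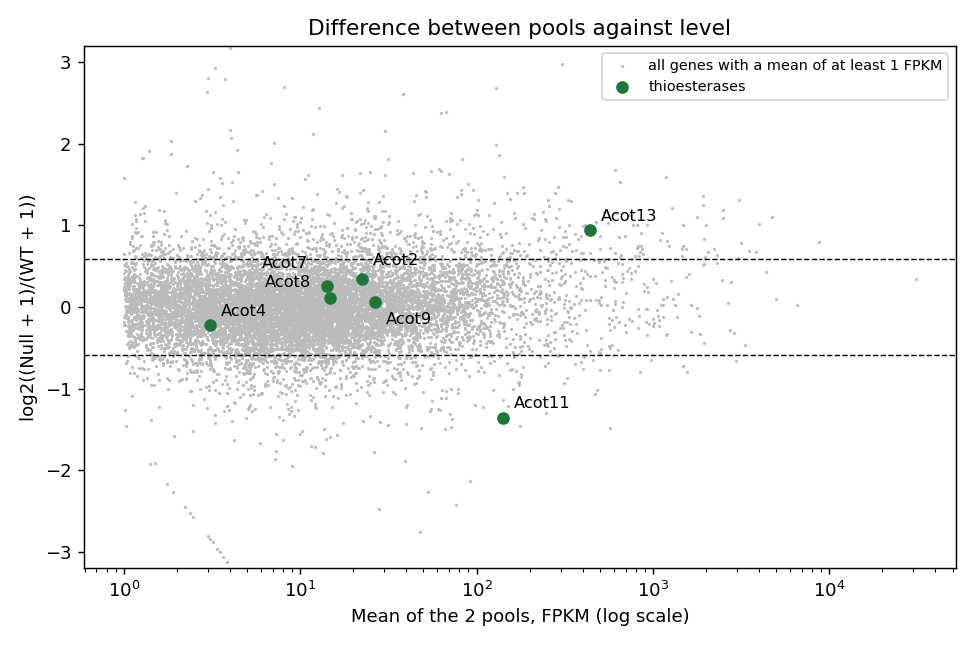
Difference between pools, log2((Null + 1)/(WT + 1)), against the mean FPKM of both pools on a log axis for the 11597 genes (grey, 62 outside the axis) with the 7 members that passed the filter in green and dashed lines at 1.5-fold. Acot13 at 0.94 and Acot11 at -1.35 lie outside the dashed lines and the other 5 between them.

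The make-up of the family differed between pools more than its total did. The 10 members summed to 741 FPKM in Null and 579 FPKM in WT, a ratio of 1.28, while the whole table summed to 590327 FPKM in Null and 508701 FPKM in WT, a ratio of 1.16. Acot13 made up 77.7% of the family sum in Null and 51.6% in WT. Acot11 made up 10.6% in Null and 35.0% in WT. There were 7.30 Acot13 FPKM for each Acot11 FPKM in Null, against 1.47 in WT. Together these mRNAs were 88.3% of the family in Null and 86.7% in WT, and the other 8 members summed to 86.6 FPKM in Null and 77.3 FPKM in WT. By fold type, the 6 type II members summed to 713 FPKM in Null and 555 FPKM in WT, and the 4 type I members to 28.4 FPKM in Null and 24.2 FPKM in WT. Shares and ratios within a pool are the same under any scaling of a whole column by 1 factor. They do not stay the same under differences that move with gene length. The part of mRNA length in the Acot13 share was not tested, and the lower Acot11 level in Null guided the choice of members.

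**Figure D3:**
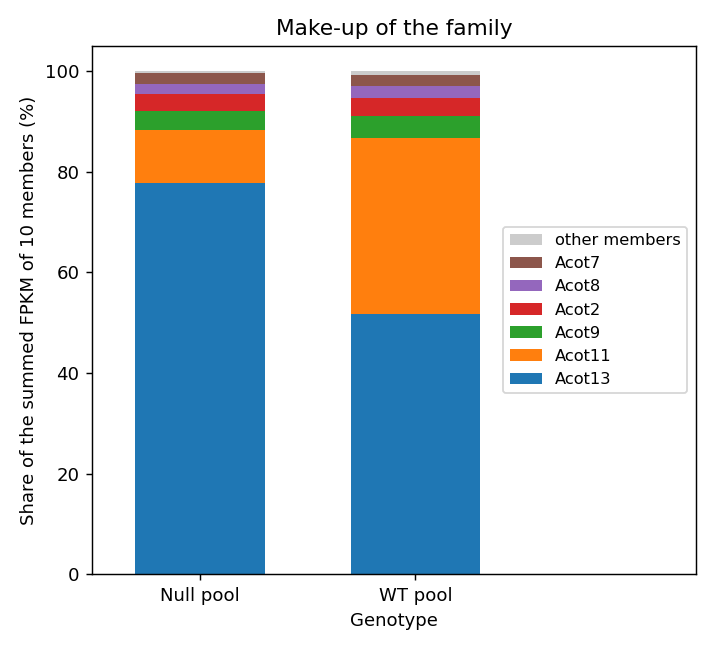
Share of each member in the summed FPKM of the 10 thioesterases, stacked, in the Null pool and the WT pool. Acot13 takes 77.7% in Null and 51.6% in WT, and Acot11 takes 10.6% in Null and 35.0% in WT.

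The remaining type II enzymes were close in level between pools. Acot9, a mitochondrial thioesterase of broad chain-length range, had a log2 ratio of 0.06. Acot8, the hotdog thioesterase of peroxisomes, was at 15.4 FPKM in Null and 14.1 FPKM in WT, a ratio of 0.11 on the log2 scale. It overlaps Snx21 and Zswim3 in the annotation, which were at 22.3 and 3.57 FPKM in Null and at 19.3 and 3.91 FPKM in WT, and the library kit is not stated to keep strand. Acot7, a cytosolic long-chain enzyme best known from neurons, was at 15.5 FPKM in Null and 12.8 FPKM in WT, with a log2 ratio of 0.26. The 13 Schwann cell and nerve markers summed to 171 FPKM in Null and 165 FPKM in WT, with Dbh and Snap25 listed at 0 in both, and 6 of them passed the filter. Acot12, the cytosolic acetyl-CoA hydrolase of liver, was at 0.0970 FPKM in Null and 0.0910 FPKM in WT, under the filter in both. The hepatocyte and epithelial markers summed to 9.32 FPKM in Null and 1.25 FPKM in WT over 11 genes, with Krt14 listed at 0 in both. Most of that sum was Apoa2, at 5.84 FPKM in Null and 0.101 FPKM in WT, and Apoa1, at 2.07 FPKM in Null and 0.393 FPKM in WT, which both encode apolipoproteins. Alb, which encodes albumin, was at 0.413 FPKM in Null and 0.340 FPKM in WT, and Serpina1a, a protease inhibitor of plasma, was at 0.0495 FPKM in Null and 0.136 FPKM in WT.

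The type I enzymes lie in 1 cluster on mouse chromosome 12, in the order Acot2, Acot1, Acot4, Acot3, Acot5 and Acot6, and 1 member carried most of its mRNA. Acot2, the mitochondrial long-chain enzyme, made up 86.6% of the summed FPKM of these 6 genes in Null and 76.7% in WT. Its log2 ratio was 0.34, a Null level 1.28 times that in WT. Its cytosolic neighbour Acot1, also a long-chain enzyme, was at 0.386 FPKM in Null and 1.07 FPKM in WT. The level of Acot2 was 65.4 times that of Acot1 in Null and 18.4 times in WT. Both have near-identical coding sequences, so reads may have been assigned to either and the split between them is uncertain. Acot4, a peroxisomal enzyme that acts on succinyl-CoA in mice, had a log2 ratio of -0.22. Acot3, a peroxisomal long-chain enzyme, was listed at 0 in Null and at 0.0590 FPKM in WT, and Acot5, its neighbour and a medium-chain enzyme of mouse peroxisomes, was listed at 0 in Null and at 0.0535 FPKM in WT. Acot6, which acts on branched-chain acyl-CoA in mouse peroxisomes, was at 0.749 FPKM in Null and 1.41 FPKM in WT, a log2 ratio of -0.46. Of the 6 genes of the cluster, 5 had the lower value in Null, and Acot2 had the higher one. Of those 5 only Acot4 was above 2 FPKM in either pool, and Acot1, Acot3 and Acot5 were under the filter. Over all 11597 genes measured, 5730 had the lower value in Null, and nothing is read from the cluster's count.

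Among relatives outside the 10 members, Acot10 and Them4 lay within 1.5-fold. Acot10, an intronless relative of Acot9, was at 20.1 FPKM in Null and 22.4 FPKM in WT, with a log2 ratio of -0.15. Its annotated span lies within that of Cdh12, which was listed at 0 in both pools. The level of Acot9 was 1.36 times that of Acot10 in Null and 1.17 times in WT, and since the genes are close copies of each other their split is uncertain too. Them4, a mitochondrial thioesterase, was at 11.9 FPKM in Null and 11.1 FPKM in WT. Them5 was listed at 0 in both pools, and Baat, which conjugates bile acids in liver and also cleaves acyl-CoA, was below 0.1 FPKM in both. Them6 was not analysed here.

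The synthetases that make the substrates of these enzymes were lower in the Null pool more often than higher. Of 15 measured, 5 were lower by 1.5-fold or more and 0 were higher, with a median log2 ratio of -0.27 against 0.0056 for all genes. Over all genes, 6.75% were lower and 7.87% higher by that fold. The list was chosen with earlier results of these data known. Acsl1, the main long-chain synthetase of fat, was at 369 FPKM in Null and 630 FPKM in WT. Acss2, which makes acetyl-CoA from acetate, was at 305 FPKM in Null and 638 FPKM in WT, and Acss3, a mitochondrial short-chain synthetase, at 16.3 FPKM in Null and 32.5 FPKM in WT. The 23 listed synthetases summed to 1178 FPKM in Null and 1943 FPKM in WT. Per FPKM of the 10 thioesterases there were therefore 1.59 FPKM of synthetases in Null and 3.35 FPKM in WT. Scaling a whole column by 1 factor leaves these ratios unchanged, but differences that move with gene length do not cancel in them. Acot13 alone made up 77.7% of the thioesterase sum in Null and 51.6% in WT. The difference between these ratios rests on Acot13. Without it, the thioesterase sum was lower in Null, as the synthetase sum was. The part of mRNA length in the Acot13 level was not tested.

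Type I thioesterase genes are known targets of PPAR alpha, the fatty acid receptor, and Ppara itself was at 41.2 FPKM in Null and 71.9 FPKM in WT. Of 29 measured genes of PPAR alpha and its targets, 6 were lower by 1.5-fold or more and 1 was higher, with a median of -0.19. The shares over all genes were 6.75% lower and 7.87% higher. The 1 gene of this list that was higher was Angptl4, an inhibitor of lipoprotein lipase, at 419 FPKM in Null and 219 FPKM in WT. Fgf21, a hormone, was at 0.551 FPKM in Null and 1.72 FPKM in WT. Acadl and Acadvl, dehydrogenases of beta-oxidation, were at 1652 and 1055 FPKM in Null and at 1622 and 1332 FPKM in WT. Acot2 at 0.34 thus lay above the median of that list and Acot4 at -0.22 close to it.

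Peroxisomes also hold Acot8, Acot3 and Acot4. Of 20 measured genes for peroxisomal acyl-CoA handling, 4 were lower by 1.5-fold or more and 0 were higher, with a median of -0.28. The shares over all genes were 6.75% lower and 7.87% higher. Acaa1b, a thiolase, was at 9.62 FPKM in Null and 15.9 FPKM in WT. Phyh, which oxidises phytanoyl-CoA, was at 835 FPKM in Null and 660 FPKM in WT, and Nudt7, which degrades coenzyme A, at 239 FPKM in Null and 265 FPKM in WT. Acot8, at a log2 ratio of 0.11, was within 1.5-fold like 16 of these 20 genes.

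Acot11 shares its START domain with other proteins, and those measured lay within 1.5-fold. Of 10 measured, 0 were lower and 0 higher, against 6.75% lower and 7.87% higher over all genes. The log2 ratios of the 10 ran from -0.28 for Stard4, a sterol carrier, to 0.43 for Stard10, a phospholipid carrier. The acyl-CoA binding proteins were also within 1.5-fold in all 5 measured genes, with Dbi, the most abundant, at 5188 FPKM in Null and 4834 FPKM in WT. Most of all genes lay within 1.5-fold, so nothing is read from either count. Of 17 measured cold-responsive genes of brown fat, a list without Acot11, 5 were lower by 1.5-fold or more and 0 were higher, with a median of -0.22. Over all genes those shares were 6.75% and 7.87%. Elovl3, a fatty acid elongase, was at 17.5 FPKM in Null and 88.3 FPKM in WT, and Dio2, which activates thyroid hormone, at 9.05 FPKM in Null and 18.6 FPKM in WT. The log2 ratio of Acot11 lay between those of Elovl3 at -2.27 and Dio2 at -0.97, and below that of Ucp1 at -0.28.

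**Figure D4:**
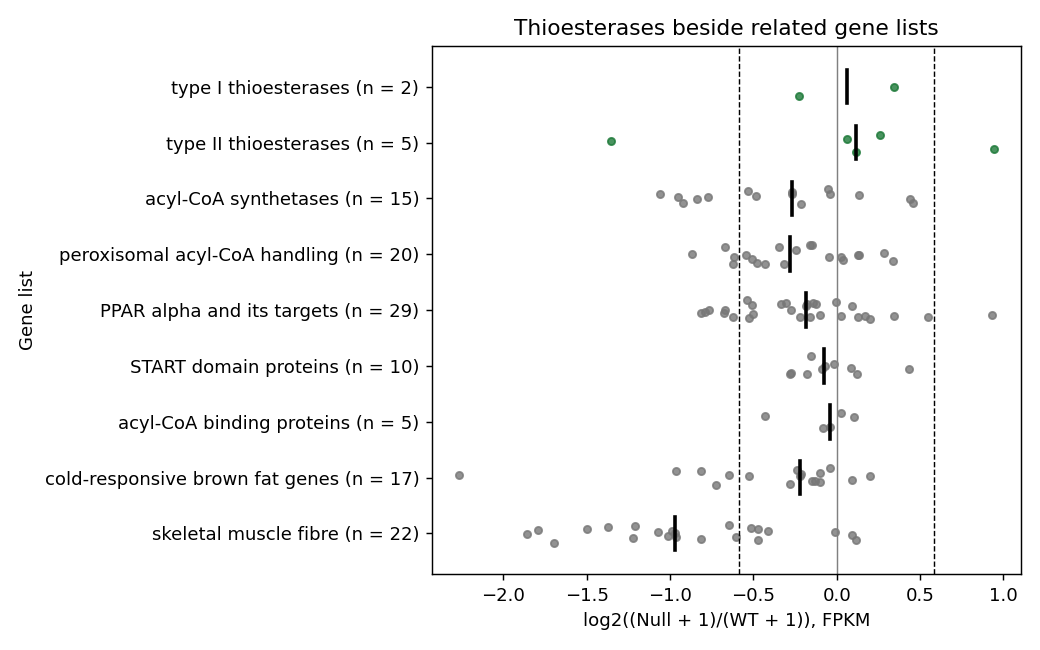
Log2 ratio of Null over WT for each measured gene (points) and the median (bar) of the type I and type II thioesterases (green, members that passed the filter) and of related lists (grey), with dashed lines at 1.5-fold. The type II points run from -1.35 to 0.94, and the bar of skeletal muscle fibre genes is at -0.97.

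Other ways of scaling left Acot11 and Acot13 outside 1.5-fold. The log2 ratio of Acot11 lay between -1.57 and -1.27 and that of Acot13 between 0.73 and 0.94 over every setting tried. Scaling both columns to the same sum moved the median of all genes to -0.19. That scaling shifts genes well above the pseudocount almost equally. It could therefore not change Acot11 as the lowest of the 7 members or Acot13 as the highest. A smaller pseudocount or no filter could also hardly move genes at such levels. The signs of Acot8 and Acot9 were not stable, since they were at -0.09 and -0.15 with columns scaled to the same sum, against 0.11 and 0.06 as deposited. Acot1, just inside 1.5-fold at -0.58 as deposited, was at -1.27 with a pseudocount of 0.1 FPKM.

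**Figure D5:**
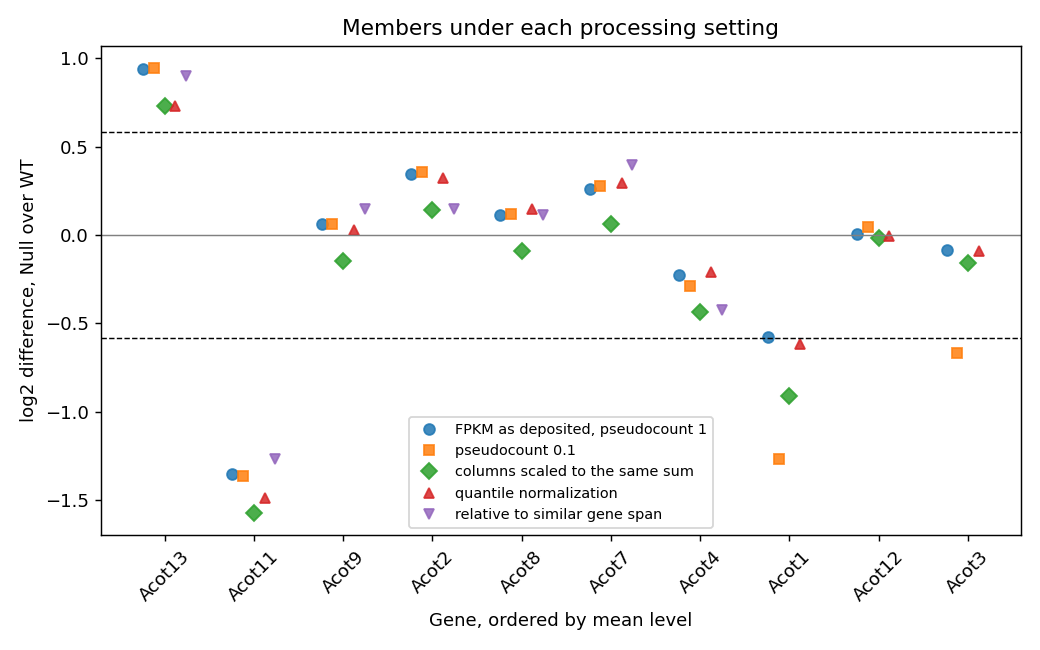
Log2 difference, Null over WT, of each member under 5 processing settings, members ordered by mean level, with dashed lines at 1.5-fold. Acot13 lies above and Acot11 below the dashed lines in all 5, and the low-level members Acot1 and Acot3 move most.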

How the data were processed

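Per the file headers, the authors deposited mRNA levels as FPKM in 1 column per genotype, and how the 3 samples of a genotype were combined is not given in the sources used here. Per the labels' protocols, a TruSeq kit was used on poly(A)-selected RNA. The submitters' processing notes name the build mm9 and, among tools, TopHat, BWA, CASAVA, DESeq and edgeR, with no role or version given in the sources used here. The microRNA columns are headed RPM per the file headers, but the deposited values sum to 1578515 in Null and 1559381 in WT and are treated as a signal. The authors' p-values and ratio for microRNAs were deposited and not used here. The fold was computed from FPKM with a pseudocount of 1 and a minimum mean of 1 FPKM, in Python 3.11.15 with pandas 2.3.3. A check on simulated columns with known folds and no noise covered the arithmetic only. A gene was counted as differing at 1.5-fold or 2-fold. The planned linear model needs a column per sample and was not run; no precision can be stated. Values of 0 were listed for 6016 genes in Null and 5796 in WT and can be failed estimates. Gene order, gene span and promoters come from RefSeq on GRCm38.p6, another build than mm9, and no position was converted; span was found for 95.2% of the 11597 genes. Members, lists and comparisons were chosen with earlier results of these data known. All members are named, with the 2 most abundant and the 2 most different genes of a list and the 5 genes most like Acot11; some genes that the rule selects are not reported here. Genes named outside that rule (Pctp, Ppara, Adipoq, Alb, Serpina1a, neighbours) were chosen after their values were seen. Alternatives were a pseudocount of 0.1 FPKM, no filter, columns scaled to the same sum, quantile normalization and, added later, a centring on gene span.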

Additional observations from a re-analysis of the deposited data

How the results depend on the processing

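Of 131 values recomputed for counts, list medians and shares under another setting, 123 stayed on their side of 1.5-fold or, for counts and shares, within 1.5 times. Of 62 recomputed values of single thioesterases 56 did so, and the other 6 belonged to Acot1, Acot3 and Acot6, low genes that passed 1.5-fold in Null downward under a smaller pseudocount or another scaling. Both tallies include values that could not change or could hardly do so. Scaling a whole column by 1 factor shifts genes well above the pseudocount almost equally. Dropping the filter leaves the value of a single gene as it was. Leaving out Acot1 and Acot2, a setting used for the shares, leaves the ratio of Acot13 to Acot11 as it was. Values near 0 changed sign, all lying about 0.15 or less from 0 on the log2 scale: 5 of single genes (Acot8, Acot9 and Them4 with columns scaled to the same sum, Acot12 with that scaling and with quantile normalization) and 5 list medians (type I thioesterases, 0.06 as reported, at -0.15 with that scaling, -0.15 with no filter and -0.14 relative to gene span, type II thioesterases at -0.09 with that scaling, against 0.11, and brown fat markers at 0.05 relative to gene span, against -0.06). With columns scaled to the same sum, 529 genes were higher by 1.5-fold and 1837 lower, and 167 were higher by 2-fold and 402 lower, against 913, 783, 252 and 191 as deposited; the shift of all genes by that scaling is its construction. With a pseudocount of 0.1 FPKM, which widens the ratios of low genes by construction, 297 genes were lower by 2-fold. Relative to genes of similar gene span, a setting added after the data were seen, 102 were higher and 123 lower by 2-fold. That setting counted only the 11039 genes with a span. Leaving out small RNA genes and genes listed at 0, with no centring, gave 186 higher and 133 lower. The part of the dropped genes in the counts relative to span was not tested. With no filter the median of liver and epithelial markers was 0.11, against 1.89, because more genes were counted. The members lower or higher by 1.5-fold numbered 1 and 1 in every setting. A centring on protein length was not run, since no protein lengths were used here. No paired analysis was possible because the table holds 1 column per genotype, and for the same reason no replicate could be left out. What depth limits cannot be stated for FPKM without library totals, and members below 1 FPKM are the least certain.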
